A study of Homo sapiens with 6 samples.

Results

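Complex I (NADH:ubiquinone oxidoreductase) genes were taken as every row of the count table whose gene name consists of NDUF, one of the letter codes A, B, C, S, V, AF or AB, and a number. The rule found 46 of 58735 rows, all of them nuclear genes, and no pseudogene name matches it. They comprise 38 subunit genes and 8 assembly factor genes (NDUFAF1 to NDUFAF8). The cells were ACHN, an established human renal carcinoma line of wild-type genotype, which the submitters class as clear cell renal cell carcinoma. The 3 curcumol libraries came from ACHN cells given curcumol, a sesquiterpenoid from Curcuma rhizomes, and neither dose nor time is stated in the sources used here. The 3 control libraries came from ACHN cells without the drug. The sample labels describe a vehicle control and the series text no drug treatment, so whether a vehicle was added is uncertain. The labels state that replicates were independent, and poly(A) RNA was sequenced in pairs on an Illumina instrument.

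Complex I is the entry point of the respiratory chain. It oxidises NADH at the tip of an arm that reaches into the mitochondrial matrix, passes the electrons along flavin and iron-sulphur clusters to ubiquinone, and pumps protons through a second arm in the inner membrane. The catalytic core of the matrix arm is nuclear-encoded (among others NDUFV1, NDUFV2 and NDUFS1), whereas that of the membrane arm is mitochondrially encoded (the MT-ND genes). The remaining NDUF subunits are accessory and surround this core. The arms are built as modules by assembly factors that are absent from the finished enzyme. NDUFA4 carries a complex I name but is now assigned to complex IV.

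Upstream sequences are shown for 5 members on which the comparison turns, a higher and a lower accessory subunit (NDUFB4 and NDUFA3), the core subunit NDUFV1 and the partner assembly factors NDUFAF4 and NDUFAF3, because promoters of respiratory genes are known for binding sites of NRF1, ETS-family factors (NRF2) and YY1. The 250 bases before the RefSeq start of each gene (GRCh38.p14) are NDUFB4 at chr3:120596086-120596335 on the plus strand, NDUFAF4 at chr6:96897892-96898141 on the minus strand, NDUFA3 at chr19:54102605-54102854 on the plus strand, NDUFV1 at chr11:67606686-67606935 on the plus strand and NDUFAF3 at chr3:49020834-49021083 on the plus strand. Capitals mark matches, on either strand, to GCGCANGC (NRF1), CCGGAAG (ETS) or AAGATGGC (YY1), and overlapping matches run together.
NDUFB4: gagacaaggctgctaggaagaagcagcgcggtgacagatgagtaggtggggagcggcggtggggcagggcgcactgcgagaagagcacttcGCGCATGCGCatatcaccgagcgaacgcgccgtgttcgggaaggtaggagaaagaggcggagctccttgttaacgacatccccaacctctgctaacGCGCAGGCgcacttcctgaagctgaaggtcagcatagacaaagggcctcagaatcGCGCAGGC
NDUFAF4: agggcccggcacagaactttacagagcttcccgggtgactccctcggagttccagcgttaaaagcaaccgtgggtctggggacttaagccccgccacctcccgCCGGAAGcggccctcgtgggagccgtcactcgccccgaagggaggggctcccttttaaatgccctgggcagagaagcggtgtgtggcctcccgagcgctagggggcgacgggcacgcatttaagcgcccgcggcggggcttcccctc
NDUFA3: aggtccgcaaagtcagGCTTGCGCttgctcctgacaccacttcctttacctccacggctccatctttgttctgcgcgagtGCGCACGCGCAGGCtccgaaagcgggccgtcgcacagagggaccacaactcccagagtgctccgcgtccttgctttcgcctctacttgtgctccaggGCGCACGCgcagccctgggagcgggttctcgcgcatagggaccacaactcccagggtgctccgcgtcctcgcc
NDUFV1: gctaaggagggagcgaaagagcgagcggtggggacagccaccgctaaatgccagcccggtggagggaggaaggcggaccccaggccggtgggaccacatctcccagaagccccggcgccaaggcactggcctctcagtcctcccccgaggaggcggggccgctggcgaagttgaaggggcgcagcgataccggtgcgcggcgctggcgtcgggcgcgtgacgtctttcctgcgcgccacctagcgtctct
NDUFAF3: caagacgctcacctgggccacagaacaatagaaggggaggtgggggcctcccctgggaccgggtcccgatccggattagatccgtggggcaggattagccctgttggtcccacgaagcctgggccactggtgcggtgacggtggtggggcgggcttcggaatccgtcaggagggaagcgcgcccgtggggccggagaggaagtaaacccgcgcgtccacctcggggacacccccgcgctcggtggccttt
NDUFB4 and NDUFAF4 were higher in curcumol libraries, and NDUFA3, NDUFV1 and NDUFAF3 were lower. NRF1 letters occurred 4 times before NDUFB4, which was higher, and 4 times before NDUFA3, which was lower. The window of NDUFAF4 held 1 ETS match, and those of NDUFV1 and NDUFAF3 held none of the 3 motifs. In windows that also include the 50 bases after the start, NRF1 letters were present in 14 of 38 members with a RefSeq window (36.8%) and in 21.7% of the 10550 tested genes with one. ETS letters were present in 7 of the 38 members (18.4%) and 19.1% of these genes, and YY1 letters in 7 members (18.4%) and 5.40% of these genes. By direction, NRF1 letters stood in 10 of 20 members that were higher in curcumol libraries and in 3 of 9 that were lower. ETS letters stood in 3 of the 20 and 1 of the 9, and YY1 letters in 4 of the 20 and 3 of the 9. A match to these letters is a description and shows no binding.

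The deposited values were raw counts, with library totals of 16962012 to 17827433. Levels are given as CPM, the count over the library size scaled by TMM factors. These factors were 0.900 to 0.919 in curcumol libraries and 1.09 to 1.10 in control libraries. Differences were tested with edgeR's quasi-likelihood test, with Benjamini-Hochberg adjustment over 15160 genes and a threshold of 0.05. The response was very broad, since 79.7% of all tested genes passed, 39.4% higher and 40.3% lower in curcumol libraries. Scaling by library totals moved the median log2 fold change of all genes to -0.28, against -0.02 with TMM. A second alternative corrected each library for the GC content of the transcripts (a GC offset). Values below are on the TMM scale unless stated, and called genes whose direction turns under another scaling are named where they are described. The 3 libraries of a group correlated at 0.988 to 0.992 on log2 CPM. Of 8 renal epithelial tumour markers 7 were tested, and all 7 were lower in curcumol libraries, PAX8 by 1.68 on the log2 scale. Under the GC offset 4 were lower and 1 higher, KRT18, which stood at 0.35 in that fit and at -0.24 with TMM. Their summed level was 3411 to 3878 CPM in curcumol libraries and 5078 to 5456 CPM in control libraries. CA9, a marker of clear cell tumours, had 0, 2 and 3 counts in curcumol libraries and 0, 1 and 0 counts in control libraries. Of 9 markers of blood, endothelial and stromal cells, 3 were tested, and their summed level over all 9 was 7.69 to 15.6 CPM in curcumol libraries and 4.90 to 5.38 CPM in control libraries. CD14 had 67 to 77 counts in curcumol libraries and 0 to 3 counts in control libraries, COL3A1 had 23 to 58 counts in curcumol libraries and 0 counts in control libraries, and CD3E had 0 counts in every library. COL1A1, the third tested, was lower, with 14 to 66 counts in curcumol libraries and 91 to 100 counts in control libraries (log2 fold change -1.14, adjusted p = 0.0162). Under the GC offset COL1A1 stood at -0.51 and lost its call (adjusted p = 0.283), while CD14 and COL3A1 were still called higher. The part of these markers in the results below was not tested. In bulk RNA, fewer cells of a type and less RNA per cell cannot be told apart.

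Of the 46 members 45 passed the filter on low counts. After curcumol 25 were higher and 11 lower, and 9 did not pass the test. The called share, 80.0%, lay near the 79.7% of all tested genes, whereas its split was 55.6% higher and 24.4% lower against 39.4% and 40.3%. The groups did not overlap for 34 of the 45, against 81.0% of all tested genes. The median absolute log2 fold change was 0.61 over the members and 0.88 over all genes. With library totals the split was near even, 19 higher and 17 lower, against 4818 higher and 7372 lower of all 15160 tested genes. Differences of at least 2-fold among called members were 8 rises and 2 falls, the falls being NDUFV1 and NDUFAF3. With library totals these were 3 rises and 3 falls, and under the GC offset 6 rises and 1 fall. Over all 15160 tested genes there were 3223 such rises and 3508 falls, or 2461 and 4461 with library totals. The remaining member, NDUFA7, an accessory subunit of the matrix arm, was too low to test, with 14, 7 and 10 counts in curcumol libraries and 2, 5 and 3 counts in control libraries. It shares 456 of its 1413 exonic bases with another gene on the same strand.

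**Figure D1:**
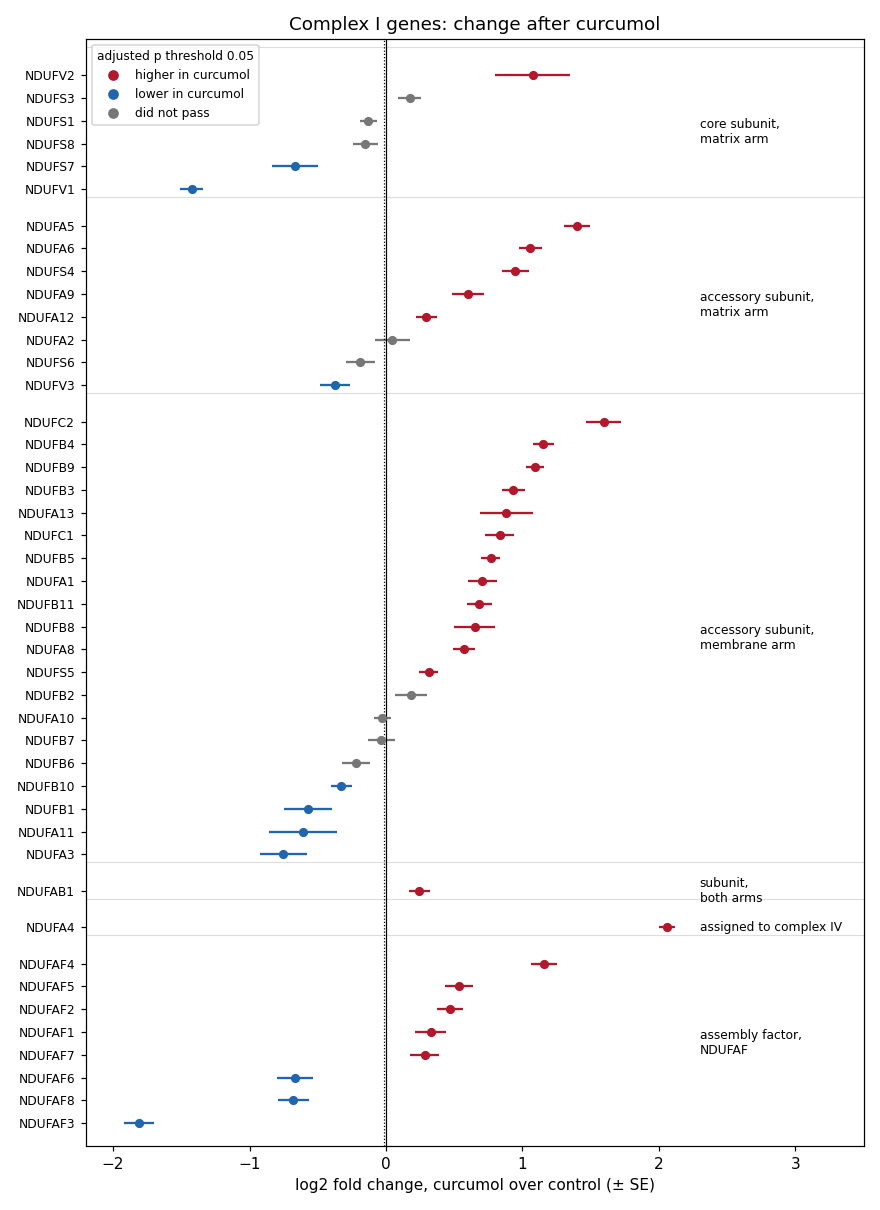
Log2 fold change, curcumol over control, of 44 of the 45 tested complex I genes by role, as points with bars of 1 SE (3 libraries per group, TMM scaling). Red points were higher and blue points lower at an adjusted p of 0.05, grey points did not pass, and the dotted line is the median of all genes (-0.02). The scale runs from -1.81 for NDUFAF3 to 2.06 for NDUFA4, and core subunits sit lower (median -0.15) than accessory subunits of the membrane arm (median 0.61). The core median turns to 0.09 with a GC offset.

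Subunits and assembly factors had nearly the same median difference, 0.30 over 37 tested subunits and 0.31 over 8 assembly factors, against -0.02 over all genes. Of the 37 subunits 20 were higher, 8 lower and 9 did not pass. Of the 8 assembly factors 5 were higher and 3 lower. Of all tested genes 39.4% were higher and 40.3% lower. The called share was 75.7% for subunits, near the 79.7% of all tested genes. The groups did not overlap for 26 of 37 subunits and for 8 of 8 assembly factors, against 81.0% of all tested genes. Both medians depended on scaling. Library totals gave 0.03 for subunits and 0.04 for assembly factors, with the median of all genes at -0.28. An offset for GC content gave 0.41 for subunits and turned assembly factors to -0.03. Without NDUFA4 the subunits stood at a median of 0.27, with 19 higher and 8 lower of 36.

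The families differed in their summed level. The 38 subunits added up to 2307, 2084 and 2081 CPM in curcumol libraries and to 1545, 1541 and 1554 CPM in control libraries, a ratio of 1.39. Every curcumol library lay above every control library. Without NDUFA4 the sum was 1730 ± 103 CPM in curcumol libraries and 1444 ± 8.37 CPM in control libraries (SD, n = 3 each), a ratio of 1.20, or 0.996 when scaled by library totals. The 8 assembly factors added up to 184, 157 and 164 CPM in curcumol libraries and to 170, 163 and 168 CPM in control libraries. These ranges overlapped, and the ratio was 1.01, or 0.836 with library totals. These sums are weighted by abundant members and were not tested.

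Core subunits of the matrix arm showed more falls than rises: 1 of 7 was higher, 3 were lower and 3 did not pass. The lower share, 42.9%, lay near the 40.3% of all tested genes, and the higher share was 14.3% against 39.4%. NDUFV1 binds the flavin mononucleotide that takes electrons from NADH, and its gene lies at chromosome 11, 67605653 to 67612554 (GRCh38). It had 37.7, 30.5 and 30.6 CPM in curcumol libraries and 86.1, 89.1 and 89.8 CPM in control libraries. All curcumol libraries were below all control libraries by a wide gap. NDUFV1 fell by 1.42 on the log2 scale (SE 0.08, adjusted p = 1.09e-12), and by 0.81 with a GC offset. NDUFV2, an iron-sulphur protein that sits next to NDUFV1 at the tip of the arm, was the only nuclear core gene to rise. It had 2.31, 3.58 and 2.84 CPM in curcumol libraries and 1.40, 1.496 and 1.24 CPM in control libraries. The groups did not overlap, but the counts behind these levels were low, 36, 57 and 45 against 26, 29 and 24. Its log2 fold change was 1.08 ± 0.28 (SE, adjusted p = 0.00136). A low level for a core subunit stands beside an annotation limit, since NDUFV2 shares 771 of its 2711 exonic bases with AP005263.1 on the same strand, which has 0 counts in every library. The pseudogene NDUFV2P1 had 2, 7 and 4 counts in curcumol libraries and 4, 13 and 5 counts in control libraries. These are not negligible beside the low counts of NDUFV2, and their part was not tested. The sources used here do not give how reads in shared bases were counted.

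NDUFS7 is an iron-sulphur protein next to the ubiquinone-binding site. It had 9.74, 8.16 and 5.18 CPM in curcumol libraries and 11.5, 12.4 and 12.7 CPM in control libraries, and fell by 0.67 (SE 0.17, adjusted p = 0.00118), or by 0.45 without curcumol replicate 3. The groups did not overlap, but with a GC offset it turned to 0.09 and was not called. The 3 core genes that did not pass were NDUFS1, the large iron-sulphur subunit that receives electrons from the flavin end, NDUFS3 and the iron-sulphur protein NDUFS8. NDUFS1 had 161, 152 and 146 CPM in curcumol libraries and 170, 170 and 161 CPM in control libraries, with a log2 fold change of -0.13 ± 0.06 (SE, adjusted p = 0.0579). NDUFS3 stood at 0.17 ± 0.08 and NDUFS8 at -0.15 ± 0.09, with adjusted p of 0.0663 and 0.128. Under the GC offset NDUFS3 (0.41) and NDUFS8 (0.54) were called higher and NDUFS1 (-0.53) lower. With library totals NDUFS3 turned to -0.09, and NDUFS1 and NDUFS8 were called lower. Calls were also gained by NDUFS1 without control replicate 3 or curcumol replicate 1 (-0.17 in both), by NDUFS8 without curcumol replicate 1 (-0.24) and by NDUFS3 without curcumol replicate 2 (0.26). The core direction is tied to scaling. Library totals gave a median of -0.42 with 5 lower and 1 higher, and the GC offset gave a median of 0.09 with 3 higher and 3 lower.

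Among accessory subunits 17 of 28 tested were higher, 5 were lower and 6 did not pass, at a median of 0.59. The shares were 60.7% higher and 17.9% lower, against 39.4% and 40.3% of all tested genes. The median was 0.32 with library totals, when 15 were higher and 9 lower, and 0.55 with a GC offset, when 19 were higher and 5 lower. In the matrix arm 5 of 8 tested were higher, 1 was lower and 2 did not pass (median 0.45). In the membrane arm 12 of 20 were higher, 4 were lower and 4 did not pass (median 0.61).

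Among accessory genes of the matrix arm, NDUFA5 had the largest difference on the TMM scale, and NDUFA6 under the GC offset. NDUFA5 had 112, 130 and 137 CPM in curcumol libraries and 42.6, 45.4 and 55.7 CPM in control libraries. All curcumol libraries lay above all control libraries. Its log2 fold change was 1.40 ± 0.10 (SE, adjusted p = 1.62e-10), and 0.70 with a GC offset. NDUFA6, an LYR-motif protein that docks the acyl carrier protein NDUFAB1 to the matrix arm, had 64.9, 65.2 and 57.0 CPM in curcumol libraries and 31.7, 28.8 and 29.3 CPM in control libraries (log2 fold change 1.06 ± 0.08 SE, adjusted p = 1.30e-10, and 1.01 under the GC offset). NDUFS4, which helps hold the NADH-binding module in place and is a frequent site of mutations in Leigh syndrome, had 34.1, 31.3 and 31.7 CPM in curcumol libraries and 17.7, 15.0 and 17.7 CPM in control libraries. It rose by 0.95 (SE 0.10, adjusted p = 1.47e-08). In each of these genes the lowest curcumol library was above the highest control library.

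Smaller differences marked the rest of the matrix arm. NDUFA12, the subunit that takes the place of the assembly factor NDUFAF2 late in assembly, had 95.2, 76.9 and 82.7 CPM in curcumol libraries and 67.3, 66.3 and 73.9 CPM in control libraries. It rose by 0.30 (SE 0.08, adjusted p = 0.00194), but stood at 0.03 scaled by library totals and 0.12 under the GC offset and was not called in either. NDUFV3, a small subunit beside the flavin site, had 20.9, 20.2 and 18.5 CPM in curcumol libraries and 24.4, 29.7 and 23.1 CPM in control libraries. It fell by 0.37 (SE 0.11, adjusted p = 0.00341). NDUFS6, a zinc-binding subunit, stood at -0.19 ± 0.11 and NDUFA2 at 0.05 ± 0.13 (SE, adjusted p = 0.107 and 0.741), with overlapping libraries in both. NDUFS6 turned to 0.02 under the GC offset, and was called lower with library totals (-0.45) and without curcumol replicate 1 (-0.33), and NDUFA2 turned to -0.22 with library totals, without a call. A 9th accessory gene here, NDUFA7, is the one that was not tested.

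In the membrane arm NDUFC2 stood at the top on the TMM scale. Under the GC offset NDUFA13 (1.52) stood above NDUFC2 (1.40). NDUFC2 lies at chromosome 11, 78068304 to 78080219, and had 18.3, 16.3 and 19.3 CPM in curcumol libraries and 5.60, 6.14 and 6.09 CPM in control libraries. The log2 fold change was 1.596 ± 0.13 (SE, adjusted p = 2.07e-10). NDUFC2 shares 431 of 2652 exonic bases with the readthrough gene NDUFC2-KCTD14, which had 1 count in all 6 libraries. NDUFB4, whose upstream bases hold 4 NRF1 matches, had 64.2, 63.9 and 64.3 CPM in curcumol libraries and 27.1, 30.1 and 29.3 CPM in control libraries. The curcumol values were almost identical, and the log2 fold change was 1.15 ± 0.08 (SE, adjusted p = 1.14e-11). NDUFB9, the LYR-motif protein that docks NDUFAB1 to the membrane arm, had 144, 132 and 132 CPM in curcumol libraries and 62.3, 65.1 and 64.5 CPM in control libraries. Its log2 fold change was 1.09 ± 0.07 (SE, adjusted p = 1.52e-12). Both partners that dock NDUFAB1 thus had about 2-fold higher levels, 2.13-fold for NDUFB9 and 2.08-fold for NDUFA6. NDUFB9 shares 677 and 187 of its 4106 exonic bases with MTSS1 and TATDN1 on the other strand. These 2 genes were higher too, at 3.09 and 1.51, and the part of shared reads was not tested.

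NDUFAB1 itself, the mitochondrial acyl carrier protein, which occurs in both arms and also serves fatty acid and lipoic acid synthesis, differed far less. It had 45.5, 43.4 and 44.1 CPM in curcumol libraries and 38.3, 36.2 and 37.8 CPM in control libraries. The groups did not overlap, and it rose by 0.24 (SE 0.08, adjusted p = 0.00711). With library totals it stood at -0.02 and was not called. The other 9 higher accessory genes of the membrane arm had log2 fold changes of 0.31 to 0.93, and NDUFA9 of the matrix arm, at its joint with the membrane, stood at 0.60 (adjusted p = 8.56e-05).

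The membrane arm also held 4 falls, which were smaller than its largest rises. NDUFA3 had 5.83, 3.77 and 5.75 CPM in curcumol libraries and 8.61, 7.84 and 9.39 CPM in control libraries. It fell by 0.75 (SE 0.17, adjusted p = 0.000494), while TFPT, with which it shares 157 exonic bases on the other strand, stood at 1.38. NDUFB10, a cysteine-rich subunit of the intermembrane space side, had 50.03, 46.9 and 46.2 CPM in curcumol libraries and 60.96, 57.8 and 60.7 CPM in control libraries. It fell by 0.33 (SE 0.07, adjusted p = 0.000415), but with a GC offset it stood at 0.23 and was called higher. NDUFB1 and NDUFA11 were called lower although their groups overlapped. NDUFB1 had 7.05, 5.40 and 5.24 CPM in curcumol libraries and 9.90, 9.65 and 6.76 CPM in control libraries (log2 fold change -0.57 ± 0.18 SE, adjusted p = 0.00531). NDUFA11 had 4.36, 2.01 and 3.79 CPM in curcumol libraries and 6.62, 4.33 and 4.54 CPM in control libraries (log2 fold change -0.61 ± 0.25 SE, adjusted p = 0.0294), and stood at 0.04 with a GC offset. Its call was lost without curcumol replicate 2 (-0.34, adjusted p = 0.196) and without control replicate 1 (-0.40, adjusted p = 0.175). Of the 4 that did not pass, NDUFA10 had 128, 121 and 114 CPM in curcumol libraries and 122, 125 and 123 CPM in control libraries, with overlapping groups. NDUFB2, NDUFB7 and NDUFB6 stood at 0.18 ± 0.12, -0.03 ± 0.10 and -0.22 ± 0.10 (SE, adjusted p = 0.168, 0.757 and 0.0579). Under the GC offset NDUFB7 (0.70) and NDUFB2 (0.50) were called higher and NDUFB6 (-0.65) and NDUFA10 (-0.12) lower. With library totals NDUFB2 turned to -0.09, and NDUFB7, NDUFB6 and NDUFA10 were called lower. NDUFB2 was also called higher without curcumol replicate 3 (0.32, adjusted p = 0.00495), and NDUFB6 called lower without control replicate 1 (-0.28) or curcumol replicate 1 (-0.29).

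NDUFA4 had the largest log2 fold change of the 45 tested members and lies at chromosome 7, 10931951 to 10940256. This subunit, known from complex IV, had 459, 403 and 420 CPM in curcumol libraries and 99.8, 106 and 102 CPM in control libraries. The mean was 427 ± 28.8 CPM in curcumol libraries and 103 ± 2.88 CPM in control libraries (SD, n = 3 each). Its log2 fold change was 2.06 ± 0.06 (SE, adjusted p = 1.70e-17), a 4.17-fold difference, and 1.55 with a GC offset. Its paralogue NDUFA4L2, a hypoxia-inducible gene known to be high in clear cell renal tumours, was nearly silent, with 2.24, 1.88 and 1.33 CPM in curcumol libraries and 1.61, 2.01 and 1.76 CPM in control libraries. These groups overlapped (log2 fold change 0.02 ± 0.30 SE, adjusted p = 0.960), but under the GC offset NDUFA4L2 stood at 0.69 and was called higher (adjusted p = 0.0385).

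**Figure D2:**
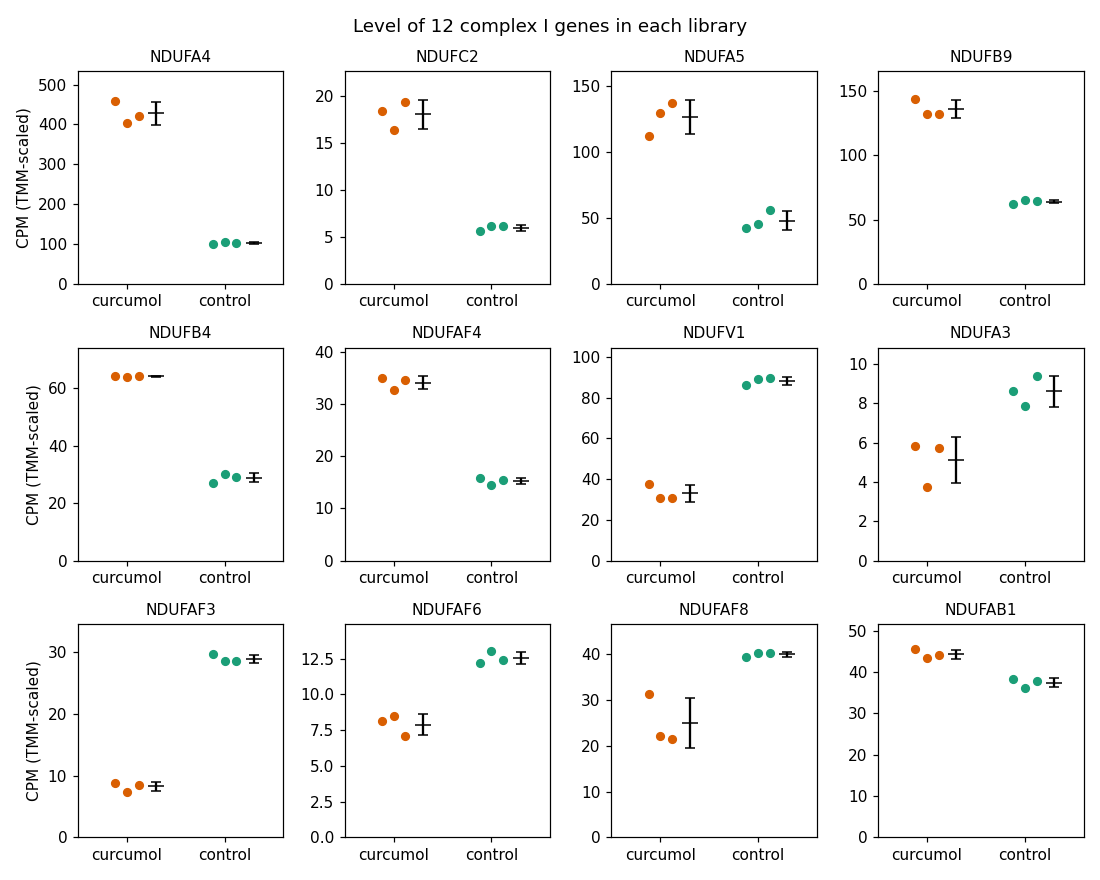
TMM-scaled CPM of 12 complex I genes in each library, with curcumol libraries (orange) left of control libraries (green) and the mean ± SD beside each group (n = 3 each). Vertical axes start at 0 and differ between panels. The 12 genes are a selection in which the groups do not overlap, as for 34 of the 45 tested members and 81.0% of all tested genes. They run from NDUFA4 (403 to 459 against 99.8 to 106 CPM) to NDUFAB1 (43.4 to 45.5 against 36.2 to 38.3 CPM). NDUFAB1 stands at -0.02 (log2) with library totals.

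Levels can be compared between genes only per length of transcript. Per kilobase of the principal transcript NDUFS5 was first of the 45 in both groups, at 204 ± 19.8 CPM per kilobase in curcumol libraries and 165 ± 7.55 in control libraries (SD, n = 3 each). NDUFA4 was 2nd in curcumol libraries and 12th in control libraries, at 201 ± 13.5 and 48.1 ± 1.35 CPM per kilobase. NDUFV1 was 26th in curcumol libraries and 9th in control libraries, at 20.6 and 55.3 CPM per kilobase. Among assembly factors NDUFAF8 had the highest level per kilobase in both groups, 40.6 in curcumol libraries and 65.1 in control libraries. The annotated transcripts of NDUFS1 and NDUFA9 are very long (11819 and 8363 bases), which lowers their values on this scale.

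The 8 NDUFAF genes divided into 5 that rose and 3 that fell, and the pair with the largest differences acts at 1 step. NDUFAF3 and NDUFAF4 bind each other and guide early assembly of the ubiquinone-binding module. NDUFAF3 (chromosome 3, 49020459 to 49023495) had 8.84, 7.41 and 8.52 CPM in curcumol libraries and 29.7, 28.5 and 28.6 CPM in control libraries. It fell by 1.81 (SE 0.11, adjusted p = 1.70e-12). NDUFAF4 (chromosome 6, 96889313 to 96897881) had 35.0, 32.7 and 34.7 CPM in curcumol libraries and 15.8, 14.5 and 15.5 CPM in control libraries. It rose by 1.16 (SE 0.09, adjusted p = 2.43e-10). Both genes kept their direction and passed with a GC offset, at -1.09 and 0.46. NDUFAF3 shares 527 of its 2434 exonic bases with DALRD3 on the other strand. DALRD3 also fell, with 94, 88 and 98 counts in curcumol libraries and 393, 337 and 363 counts in control libraries. Without known strand use in the counting, reads of NDUFAF3 and DALRD3 in the shared bases cannot be told apart.

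NDUFAF5 and NDUFAF8 form a second pair, in which NDUFAF5 hydroxylates an arginine of NDUFS7 and NDUFAF8 stabilises NDUFAF5. NDUFAF5 had 22.4, 19.2 and 21.4 CPM in curcumol libraries and 14.7, 14.1 and 14.6 CPM in control libraries, and rose by 0.54 (SE 0.11, adjusted p = 9.19e-05). NDUFAF8 had 31.3, 22.1 and 21.6 CPM in curcumol libraries and 39.4, 40.4 and 40.2 CPM in control libraries, and fell by 0.68 (SE 0.11, adjusted p = 1.78e-05). Neither gene overlapped between groups, but with a GC offset both lost their call, at 0.03 and -0.11. NDUFAF6, needed early in assembly, had 8.13, 8.48 and 7.07 CPM in curcumol libraries and 12.2, 13.0 and 12.4 CPM in control libraries. It fell by 0.67 (SE 0.13, adjusted p = 8.80e-05), and by 0.93 with a GC offset.

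The other 3 NDUFAF genes rose by small amounts. NDUFAF2, which acts late, before NDUFA12 takes its place, had 29.8, 25.7 and 26.7 CPM in curcumol libraries and 19.6, 18.6 and 21.1 CPM in control libraries (log2 fold change 0.47 ± 0.10 SE, adjusted p = 0.000186). NDUFAF1, part of the complex that assembles the membrane arm around MT-ND2, had 21.7, 19.4 and 20.6 CPM in curcumol libraries and 18.9, 15.4 and 14.9 CPM in control libraries (log2 fold change 0.33 ± 0.11 SE, adjusted p = 0.0108). NDUFAF7, a protein arginine methyltransferase of the matrix, had 27.0, 21.8 and 23.0 CPM in curcumol libraries and 19.96, 18.0 and 21.0 CPM in control libraries (log2 fold change 0.28 ± 0.11 SE, adjusted p = 0.0192). None of the 3 was called with library totals. NDUFAF7 turned to -0.09 with a GC offset. Without control replicate 2, 3 NDUFAF genes were called higher instead of 5, NDUFAF1 (0.28) and NDUFAF7 (0.22) having lost their call. NDUFAF1 also lost it without control replicate 3 (0.25), and NDUFAF7 without curcumol replicate 1 (0.19).

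Assembly factors without an NDUFAF name numbered 11, of which 4 were higher, 6 were lower and TMEM186 did not pass (log2 fold change 0.25, adjusted p = 0.0985, -0.01 with library totals and called at 0.33 under the GC offset). The shares were 36.4% higher and 54.5% lower, against 39.4% and 40.3% of all tested genes. The median of these 11 was -0.34, -0.61 with library totals and -0.66 under the GC offset, when 4 were higher and 7 lower. ACAD9 had the largest difference of all assembly factors examined. It had 5.12, 4.65 and 4.61 CPM in curcumol libraries and 41.9, 39.4 and 39.3 CPM in control libraries, and fell by 3.07 (SE 0.11, adjusted p = 3.39e-16), an 8.37-fold difference. ACAD9 shares 454 of 4327 exonic bases with a gene on the other strand. ACAD9, an acyl-CoA dehydrogenase relative, works with NDUFAF1, ECSIT, TMEM126B and TIMMDC1 in assembly of the membrane arm. These partners did not share its direction throughout. ECSIT had 45.5, 41.2 and 42.9 CPM in curcumol libraries and 21.4, 24.5 and 20.9 CPM in control libraries, and rose by 0.96 (SE 0.09, adjusted p = 3.17e-09). TMEM126B rose by 0.45, but with a GC offset it stood at -0.22 and was called lower (adjusted p = 0.0137). TIMMDC1 fell by 0.34. FOXRED1, a flavoprotein needed for assembly, had 8.33, 9.73 and 9.53 CPM in curcumol libraries and 39.0, 35.9 and 38.7 CPM in control libraries, and fell by 2.04 (SE 0.10, adjusted p = 8.78e-14). DMAC1, which acts on the far end of the membrane arm, fell by 2.08. NUBPL, which delivers iron-sulphur clusters, fell by 0.95, and COA1 by 0.66. The other rises were TMEM70 by 0.94, a factor shared with ATP synthase assembly, and DMAC2 by 0.58.

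**Figure D3:**
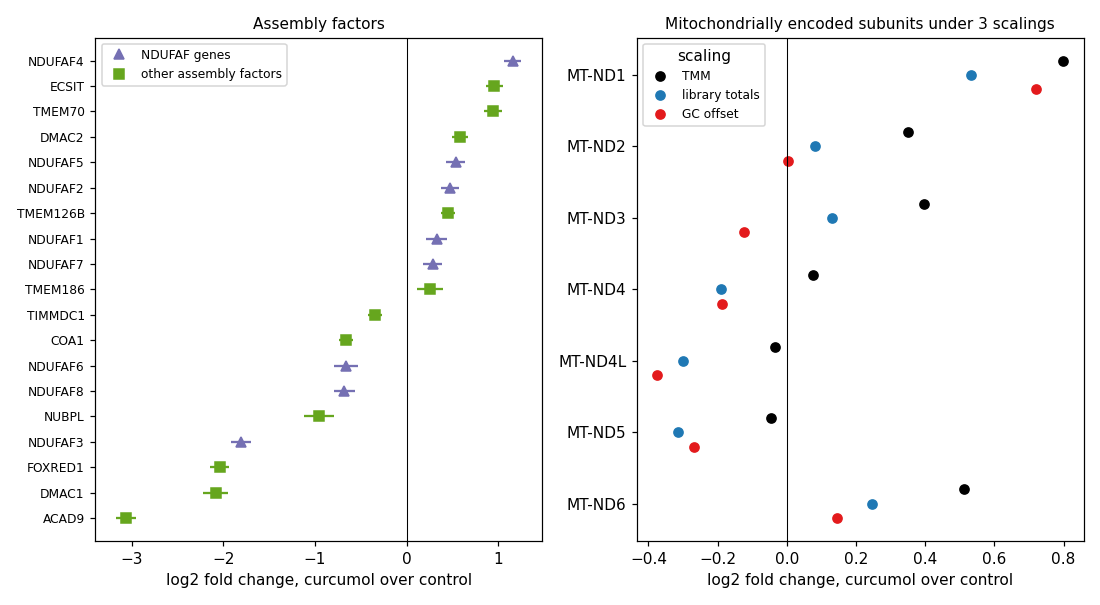
Left, log2 fold change, curcumol over control, with bars of 1 SE for the 8 NDUFAF genes (triangles) and 11 other assembly factors (squares), from ACAD9 at -3.07 to NDUFAF4 at 1.16. Right, log2 fold change of the 7 mitochondrially encoded subunits under 3 scalings, in which MT-ND1 stays above 0 in each and MT-ND3 turns from 0.40 with TMM to -0.12 with a GC offset.

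The 7 mitochondrially encoded core subunits of the membrane arm were abundant, at a sum of 19773, 17988 and 16243 CPM in curcumol libraries and 15272, 16193 and 14640 CPM in control libraries. Of these 4 rose (57.1%) and 0 fell, at a median of 0.35, against 39.4% and 40.3% of all tested genes. But library totals gave 3 higher and 3 lower and a GC offset 1 higher and 3 lower with a median of -0.12. MT-ND1, which holds part of the ubiquinone channel, had the largest difference, with a log2 fold change of 0.80 ± 0.07 (SE, adjusted p = 3.95e-10), 0.53 scaled by library totals and 0.72 under the GC offset. MT-ND6, MT-ND3 and MT-ND2 stood at 0.51, 0.40 and 0.35 and passed. Under the GC offset MT-ND3 was called lower (-0.12), and MT-ND6 (0.14) and MT-ND2 (0.0026) lost their call. With library totals MT-ND2 (0.08) was not called either. MT-ND4, MT-ND4L and MT-ND5 stood at 0.08, -0.03 and -0.05 and did not pass (adjusted p = 0.340, 0.633 and 0.523). MT-ND4L and MT-ND5 were called lower with library totals (-0.30 and -0.31) and under the GC offset (-0.37 and -0.27). MT-ND4 turned to -0.19 with library totals, where it was called lower, and under the GC offset, where it was not. It was called higher without curcumol replicate 3 (0.16). These transcripts are adenylated differently from nuclear mRNA, and the effect of poly(A) selection on them was not tested.

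Listed subunits of complexes II to V gave a setting for these counts. Of 38 genes 18 were higher, 11 lower and 9 did not pass, with a median of 0.22. The shares were 47.4% higher and 28.9% lower, against 39.4% and 40.3% of all tested genes. Library totals gave 13 higher and 18 lower with a median of -0.05, and the GC offset 18 higher and 12 lower with a median of 0.15. Of all 15160 tested genes 4818 were higher and 7372 lower with library totals. The subunits of complex I without NDUFA4 stood at a median of 0.27, or 0.0042 with library totals. The complexes differed among themselves. Complex IV had 8 of 10 higher and 1 lower with a median of 0.65, and complex V had 5 of 15 higher and 6 lower with a median of -0.10. Complex II had 2 higher and 2 lower of 4 (median -0.12), and complex III 3 higher and 2 lower of 9 (median -0.01). With library totals the medians of complexes II, III, IV and V were -0.38, -0.28, 0.38 and -0.37. Under the GC offset they were -0.24, 0.15, 0.61 and -0.12. No difference between the complexes was tested.

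Members that were higher had transcripts of lower GC content than members that were lower. The median GC content was 45.8% in members that were higher, 59.7% in members that were lower and 48.8% over all tested genes with a transcript. Spearman's rho between GC content and log2 fold change was -0.53 over the 45 members and -0.34 over 15154 genes, which share the 6 libraries. NDUFAF4 and NDUFA5, with 36.3% and 36.4%, lay at the AT-rich end and rose, and NDUFAF3 and NDUFV1, with 64.0% and 61.1%, lay near the GC-rich end and fell. NDUFA13, named after its values were seen, departed from this order, with 61.6% GC and a log2 fold change of 0.88 ± 0.20 (SE, adjusted p = 0.000332). NDUFB11, named likewise, also departed, with 60.0% GC and 0.68 ± 0.09 (SE, adjusted p = 7.59e-07). NDUFA13 shares 437 of 2708 exonic bases with AC011448.1 and 131 with YJEFN3 on the same strand, which were higher too, at 1.96 and 0.77. NDUFB11 shares 636 of 1418 with RBM10 on the other strand, which was not called (-0.13). Under the GC offset 26 members were called higher and 10 lower. Of the 36 calls with TMM, 28 were made there with the same sign, 7 were lost and NDUFB10 was called in the opposite direction, while 7 other members gained a call. In that fit NDUFAF7, NDUFS7, NDUFA11 and NDUFB10 changed sign among called members.

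**Figure D4:**
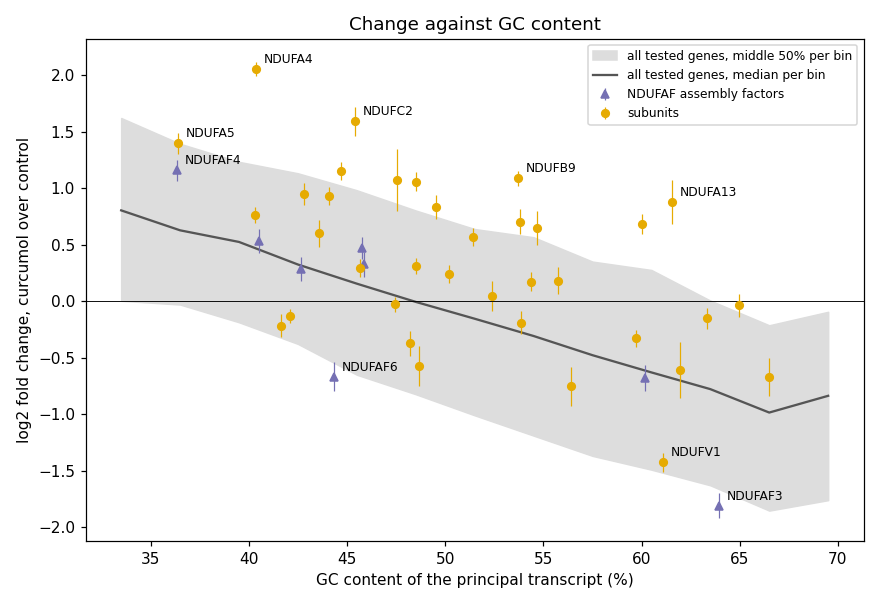
GC content of the principal transcript against log2 fold change, curcumol over control, for tested subunits (circles) and NDUFAF genes (triangles), with bars of 1 SE. The line and band are the median and the middle 50% of all tested genes per bin of GC content. NDUFA4 (40.4% GC, 2.06) lies above the band and NDUFAF6 (44.3% GC, -0.67) just below it.

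Shared sequence limits some members. Exonic bases are shared with another annotated gene in 25 of the 46 members, and in 20 of them with a gene on the other strand. The 59 NDUF pseudogene rows held 70 counts in curcumol libraries and 64 counts in control libraries, against 110127 and 98266 counts in the members. The largest total, 35 counts over the 6 libraries, was that of NDUFV2P1, and NDUFV2 itself had low counts. Across 14 alternative fits 17 members were called higher and 7 called lower every time. The same share over all tested genes was not counted, and in the main fit 79.7% of them passed. A member removed by a filter counts as not called. NDUFV2 was called higher in every fit that held it, but the stricter filter removed it. The 7 lower included NDUFV1, NDUFV3, NDUFA3, NDUFB1, NDUFAF3 and NDUFAF6. The 17 higher included NDUFA4, NDUFC2, NDUFA5, NDUFB4, NDUFB9, NDUFA6, NDUFS4 and, of the assembly factors, NDUFAF4 alone.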

How the data were processed

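RNA of 3 curcumol and 3 control libraries was analysed from a single table of raw counts, which the authors deposited as unnormalized whole numbers for each gene. Per the submitters' processing notes the reads were placed on GRCh38 (hg38). The sources used here do not give the aligner, the counter, the annotation release or the use of strand. All 58735 identifiers are in GENCODE 29, which gave coordinates, exon overlaps, transcript lengths and GC content. Upstream sequences are RefSeq's (GRCh38.p14), matched by symbol for 38 tested members.

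Genes were kept by filterByExpr (15160), scaled with TMM and tested with the robust quasi-likelihood F test of edgeR 4.0.16 (R 4.3.3), adjusted by Benjamini-Hochberg over all of them. The SE of a log2 fold change is its size over the square root of F. The script was tested on simulated counts. Depth was 16962012 to 17827433 counts, and counts near 0 carry counting error.

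The members and lists were chosen with earlier results of these data known. Named were all NDUFAF genes, the nuclear core, NDUFA4, NDUFAB1, the 6 highest and 6 lowest other called subunits, members that did not pass, the MT-ND genes and NDUFA4L2. Genes of the other lists, and members outside this rule, were named after their values were seen. The values of 1 core member are not reported here, and it is left out of the figures; counts and medians over lists include it.

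Alternatives were DESeq2 1.42.0, limma-voom (limma 3.58.1), scaling by median ratios or by library totals, no filter or a stricter one, a replicate block, a GC offset (a spline of 5 degrees of freedom fitted to each library) and leaving out each library.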

Additional observations from a re-analysis of the deposited data

How the results depend on the processing

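Library totals, which set the median of all genes at -0.28, gave 14 subunits lower instead of 8, 2 assembly factors higher instead of 5, and medians of 0.030 for subunits and 0.040 for assembly factors. They turned NDUFAB1 to -0.021 and MT-ND4 to -0.19. A GC offset gave 2 assembly factors higher and a median of -0.027 for them, and turned NDUFAF7 to -0.086, NDUFS7 to 0.093, NDUFS8 to 0.54, NDUFA11 to 0.042, NDUFB10 to 0.23, NDUFB7 to 0.70 and MT-ND3 to -0.12. The cause was not tested. With each library left out, 3 to 5 assembly factors were higher, 3 without control replicate 2, and 7 to 12 subunits were lower, 12 without curcumol replicate 1. Deviations of libraries with the same number correlated at -0.01 to 0.08 over all genes. These low values cannot decide whether libraries with the same number were paired or shared a batch. With the replicate block 20 subunits were higher and 9 lower and 5 assembly factors higher and 3 lower, NDUFS1 being added (adjusted p = 0.0345). Limma-voom changed no call among the 43 named genes tested, and DESeq2 lost 2. Members under 5 CPM, such as NDUFV2 and NDUFA11, are limited by depth.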
